A study of Mus musculus with 6 samples.

Results

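The genes described here encode the ligand TGF-beta 1 (Tgfb1), its receptors (Tgfbr1, Tgfbr2 and Tgfbr3), the SMAD proteins that carry its signal (Smad2, Smad3 and Smad4), the inhibitory SMAD (Smad7) and the nuclear corepressors Ski and Skil. They were chosen by name, 10 of the 23420 rows in the table, and all 10 had a row. Their levels were compared between induced T (iT) cells that express CD4 alone (CD4SP) and those that express CD8 alone (CD8SP). The iT cells were taken from the spleens of B-NDG mice, an immunodeficient strain, 5 weeks after transplantation of blood progenitors. All of them descended from stem cells in which doxycycline switches on Runx1-p2a-Hoxa9 from the Rosa26 locus, on a C57BL/6 background. The recipients were irradiated at 8 to 10 weeks of age. The study describes transplantation without doxycycline but also some recipients that were fed it. It does not say which applies to the mice of these libraries. The sorted cells were CD45.2+, negative for markers of other blood lineages and either CD4+ or CD8+, and any T cell subsets within a gate, such as regulatory T cells, were sequenced together. There were 3 libraries per population of 1000 cells each. The study describes each library both as a biological replicate and as a sample repeat, and neither it nor the labels tie a library to a mouse, so the p-values measure the spread between libraries, which may be partly technical.

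TGF-beta is secreted in a latent complex and acts once it is released. The active ligand is bound by the type II receptor, which recruits and phosphorylates the type I receptor, and this kinase then phosphorylates SMAD2 and SMAD3. These join SMAD4 and enter the nucleus, where SKI and SKIL repress the genes they act on, while SMAD7 is induced by the pathway and blocks the type I receptor. In T cells the pathway is known for restraining proliferation and effector differentiation and for its part in forming regulatory T cells and tissue-resident cells.

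The type I and type II receptors act as one complex, and since the difference between populations was larger for the first than the second, their promoters are shown before the values. Each runs from 250 bases before to 50 after a transcription start in RefSeq (GRCm38.p6). Tgfbr1 is at chr4:47352972-47353271 on the plus strand, the first of its 2 listed starts, and Tgfbr2 is at chr9:116175314-116175613 on the minus strand. Capitals mark the GC box GGGCGG, a site of SP family factors, and CAGAC, the core of a SMAD-binding element, on either strand.
Tgfbr1: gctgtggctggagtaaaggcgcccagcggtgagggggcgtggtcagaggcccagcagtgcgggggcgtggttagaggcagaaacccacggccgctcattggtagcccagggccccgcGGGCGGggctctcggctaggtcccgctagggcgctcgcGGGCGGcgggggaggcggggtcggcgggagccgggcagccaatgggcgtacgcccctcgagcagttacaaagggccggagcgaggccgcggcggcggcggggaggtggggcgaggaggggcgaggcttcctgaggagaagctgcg
Tgfbr2: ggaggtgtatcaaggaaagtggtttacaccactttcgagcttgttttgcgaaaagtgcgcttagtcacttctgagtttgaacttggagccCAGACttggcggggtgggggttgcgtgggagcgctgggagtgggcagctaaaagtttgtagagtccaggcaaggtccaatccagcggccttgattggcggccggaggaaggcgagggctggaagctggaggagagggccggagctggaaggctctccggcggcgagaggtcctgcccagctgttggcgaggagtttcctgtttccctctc
The GC box occurred at 2 places in the Tgfbr1 promoter and was not found in that of Tgfbr2, and it is present in 35.7% of all 32851 promoters of this length. CAGAC occurred at 1 place in the Tgfbr2 promoter and was not found in the first Tgfbr1 promoter, against 49.6% of all promoters. Neither window held the RUNX core TGTGGT (16.8% of all promoters), the SMAD palindrome GTCTAGAC (0.213%) or TATAAA (13.6%) on either strand, and no searched motif overlapped another. The GC content was 74.7% for Tgfbr1 and 59.0% for Tgfbr2, and the median of all promoters was 52.7%. The second Tgfbr1 start (chr4:47385966-47386265) had CAGAC at 1 place, no GC box and a GC content of 52.0%, so the contrasts with Tgfbr2 hold for the first start only. These matches describe the letters of the windows and were not tied to the levels.

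The libraries differed in ways that bear on each value. Values are TPM, which scale every library to about the same total, and 997896 to 998100 TPM were listed per library, so that a class of transcripts that takes more of one library lowers the rest. Ribosomal protein genes took 24.1% to 28.7% of TPM in CD4SP and 32.1% to 35.9% in CD8SP libraries. Over the 10476 tested genes the log2 fold change had a median of 0.28, toward CD4SP, and 74.8% of them were above 0. CD4SP replicate 2 had the highest ribosomal share of the CD4SP libraries (28.7%, against 24.1% and 24.4%). The 10 genes summed to 257 TPM in it, against 354 and 367 TPM in the other CD4SP libraries. It also differed in the regulatory T cell factor Foxp3, at 6.56 TPM against 142 and 167 TPM in the other CD4SP libraries and 7.48 to 10.05 TPM in CD8SP libraries. Which of these differences goes with its values for single genes was not tested. The other 8 tested regulatory T cell markers stayed in that library far above their CD8SP levels, with Tnfrsf4 at 1157 TPM against 1201 and 1124 TPM in the other CD4SP libraries and Il2ra at 92.0 TPM against 95.7 and 82.1 TPM. CD8SP replicates 1 and 2 were closer to each other (r = 0.987 across genes) than any other pair. Cd4 was at 279 to 331 TPM in CD4SP and at most 0.104 TPM in CD8SP libraries, and Cd8a was at 0.319 to 2.93 TPM and 1038 to 1161 TPM, as the labels say.

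A gene was tested when at least 3 libraries listed 1 TPM or more, and it was called when the limma adjusted p was under 0.05 and the difference exceeded 2-fold on the log2(TPM + 1) scale. Of the 10 members, 9 were tested and 2 were called, Tgfbr1 and Tgfbr3, both higher in CD4SP iT cells. The same rule picked 7.92% of all tested genes toward CD4SP, 1.8% toward CD8SP and 9.73% in either direction. On the adjusted p alone 4 members passed, with Ski and Skil added, where 17.6% of all tested genes passed in this direction. All 9 log2 fold changes were above 0, with a median of 0.61, and 6 of the 9 had every CD4SP library above every CD8SP library, as did 36.6% of all tested genes. No member had every CD8SP library above every CD4SP library, an arrangement found in 6.61% of all tested genes. Since the libraries are bulk RNA, fewer expressing cells and less RNA per cell cannot be told apart.

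**Figure D1:**
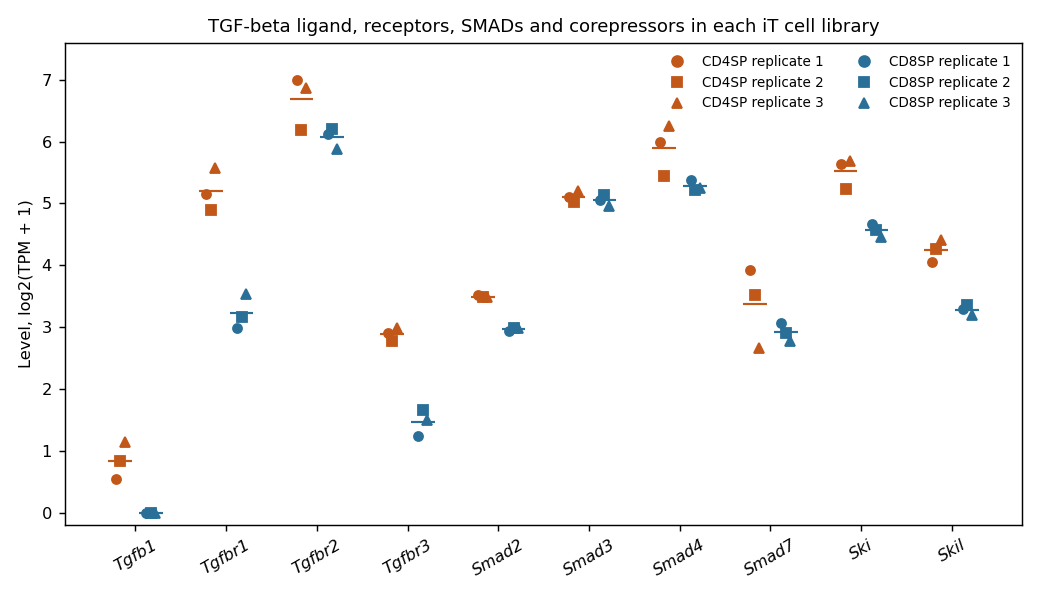
Level of each of the 10 genes in each library, as log2(TPM + 1), with CD4SP libraries in orange and CD8SP libraries in blue, 1 symbol shape per replicate number and a line at the mean of 3 libraries. Tgfbr1 and Tgfbr3 show the widest gaps between populations, the 6 Smad3 libraries overlap between populations, and Tgfb1 is at or near 0.

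Tgfb1, the ligand, lies on chromosome 7 (25687002 to 25705077, plus strand, protein coding; GENCODE M21, GRCm38). It was listed at 0.455, 0.790 and 1.198 TPM in CD4SP replicates 1 to 3 and at 0 in all 3 CD8SP libraries. The CD4SP libraries therefore lay above the CD8SP libraries, but the levels were too low for the filter. With no filter the difference on log2(TPM + 1) was 0.84 (limma adjusted p 0.0247), under 2-fold. Its size depends on the added 1, so no fold is given against values listed at 0.

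These low values are uncertain as a measure of the transcript. The next protein-coding gene before it on the same strand, B9d2, which encodes a protein of the ciliary transition zone, ends 443 bases before Tgfb1 begins. B9d2 was at 76.9, 86.8 and 74.1 TPM across CD4SP, against 67.3, 64.5 and 53.8 TPM across CD8SP. Some genes that most cells use were also listed low, among them the RNA-binding protein gene Hnrnpul1 at 0.544 to 6.02 TPM and the 14-3-3 gene Ywhaz at 3.27 to 7.32 TPM (these 3 genes were picked after their values were seen). How reads were shared between neighbouring genes was not tested.

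The receptors came next. Tgfbr1, the type I receptor kinase (chromosome 4, 47353222 to 47414931, plus strand), was at 34.6, 28.9 and 46.4 TPM across CD4SP, against 6.92, 7.96 and 10.5 TPM across CD8SP. Every CD4SP library was above every CD8SP library. The log2 fold change was 1.98 (SE 0.23, 95% interval 1.46 to 2.51, limma adjusted p 9.37e-04), a 3.95-fold difference on this scale. It lay 1.70 above the median of all tested genes, at the 98.1 percentile of their log2 fold changes, and it stayed between 1.65 and 2.13 under every alternative.

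Tgfbr2, the ligand-binding type II receptor (chromosome 9, 116084293 to 116175360, minus strand), was the most abundant of the 10 genes in both populations. It was at 127, 71.9 and 116 TPM across CD4SP, against 69.0, 72.5 and 58.0 TPM across CD8SP. CD4SP replicate 2 lay within the CD8SP range, so the populations overlapped. The log2 fold change of 0.61 (SE 0.22, 95% interval 0.12 to 1.10) did not pass, with a limma adjusted p of 0.0761. Without CD4SP replicate 2 it was 0.86 (limma adjusted p 0.00634), under 2-fold, while median-of-ratios rescaling lowered it to 0.31 (0.229) and quantile normalization to 0.38 (0.178).

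Tgfbr3, or betaglycan, is a coreceptor without kinase activity that presents the ligand (chromosome 5, 107106570 to 107289629, minus strand). It was at 6.45, 5.81 and 6.91 TPM across CD4SP, against 1.35, 2.14 and 1.83 TPM across CD8SP, the least abundant receptor in either population. The populations did not overlap, and the log2 fold change was 1.42 (SE 0.23, 95% interval 0.88 to 1.96, limma adjusted p 0.00465). At such levels the log2(TPM + 1) scale understates a difference, and with a pseudocount of 0.1 it was 1.81. Tgfbr3 shares 306 nt at 99.3% identity with Gm43422, a transcript model inside it on the same strand that is not a row of the table, so their reads are uncertain.

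The unequal difference of the receptors was then read as a ratio within each library, since the plain ratio of TPM does not depend on how a library was scaled. Tgfbr1 stood at 0.273, 0.401 and 0.402 of the Tgfbr2 level in CD4SP and at 0.1003, 0.110 and 0.182 in CD8SP libraries. These ranges did not overlap, and the mean log2 ratio, computed on TPM + 1, was 1.37 higher in CD4SP. Tgfbr3 stood at 0.0509 to 0.0808 of Tgfbr2 in CD4SP and 0.0195 to 0.0316 in CD8SP libraries, again without overlap, a difference of 0.81 on TPM + 1 and 1.19 on TPM + 0.1, since the added 1 compresses the low Tgfbr3 values. For each, the exact two-sided permutation p was 0.1 (0.167 adjusted over the 5 ratios computed), and 0.1 is the smallest that 3 libraries against 3 can give.

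**Figure D2:**
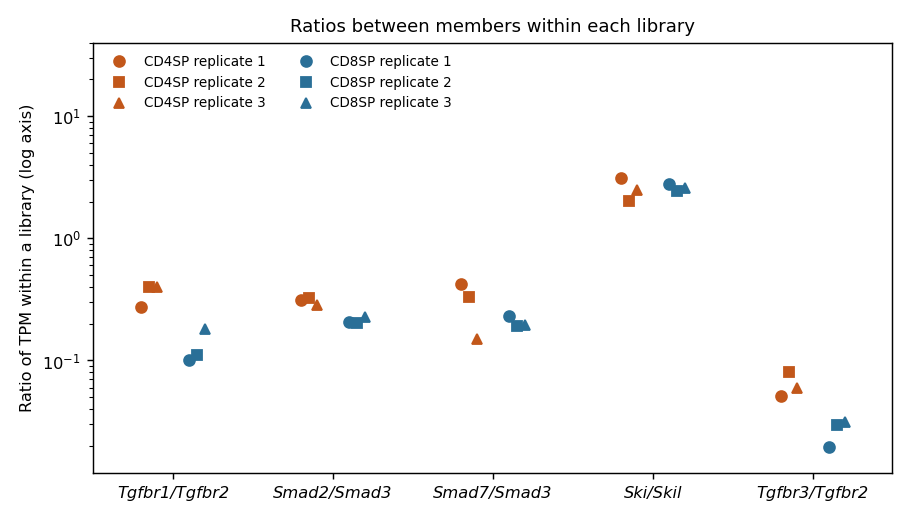
Ratio of the TPM of 2 genes within each library on a log axis, with CD4SP libraries in orange and CD8SP libraries in blue. Tgfbr1/Tgfbr2, Tgfbr3/Tgfbr2 and Smad2/Smad3 are higher in every CD4SP than in every CD8SP library, while Smad7/Smad3 and Ski/Skil overlap.

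SMAD2 and SMAD3 are the SMADs that the type I receptor phosphorylates. Smad3 (chromosome 9, 63646767 to 63757994, minus strand) was at 33.5, 31.4 and 35.7 TPM across CD4SP, against 32.3, 34.1 and 30.2 TPM across CD8SP, and the populations overlapped throughout. Its log2 fold change was 0.058 (95% interval -0.26 to 0.38, limma adjusted p 0.790), so a difference of 2-fold lay outside the interval. Because the median of all genes was itself 0.28, Smad3 lay 0.23 below it, and the sign turned to -0.24 after median-of-ratios rescaling.

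Smad2, the other of them, lies on chromosome 18 and was at 10.4, 10.2 and 10.2 TPM across CD4SP, against 6.63, 6.89 and 6.92 TPM across CD8SP. Its libraries were closer together than those of any other tested member, and the populations did not overlap. The log2 fold change of 0.53 (95% interval 0.11 to 0.94) did not pass over all genes, with a limma adjusted p of 0.0709, and it passed without the mean-variance trend (0.0354) and without CD4SP replicate 2 (0.0486). Rescaling lowered it to 0.25 by median of ratios (adjusted p 0.368 by limma) and 0.16 by quantiles (0.600). Smad3 exceeded Smad2 in every library, and Smad2 stood at 0.285 to 0.324 of Smad3 in CD4SP and 0.202 to 0.229 in CD8SP libraries. The log2 ratio was 0.47 higher in CD4SP (exact two-sided permutation p 0.1, adjusted 0.167).

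Smad4, the partner shared by all receptor-activated SMADs and also on chromosome 18, was at 63.0, 42.6 and 75.4 TPM across CD4SP, against 40.8, 36.3 and 37.1 TPM across CD8SP. The populations did not overlap, but CD4SP replicate 2 was only just above the highest CD8SP library. The log2 fold change was 0.61 (95% interval 0.14 to 1.09, limma adjusted p 0.0686), and 0.84 without that library (limma adjusted p 0.00666), again under 2-fold. It was 0.31 with median-of-ratios rescaling (adjusted p 0.230 by limma) and 0.33 with quantile normalization (0.238).

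The inhibitors of the pathway were of 2 kinds. Smad7, which blocks the type I receptor and is itself a target of the pathway, lies on chromosome 18 and was at 14.2, 10.4 and 5.30 TPM across CD4SP, against 7.40, 6.48 and 5.85 TPM across CD8SP. Replicate 3 of CD4SP was the lowest of all 6 libraries and replicate 1 the highest, so the populations overlapped. The log2 fold change was 0.45 (95% interval -0.28 to 1.18, limma adjusted p 0.338), with the widest interval of the tested members, and it was 0.80 without CD4SP replicate 3 and 0.17 without replicate 1. The rescalings gave 0.18 and 0.077.

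Ski (chromosome 4, 155154075 to 155222592, minus strand), a corepressor that binds SMAD complexes, was at 48.5, 36.8 and 50.2 TPM across CD4SP, against 24.5, 22.6 and 21.0 TPM across CD8SP. Skil, its close relative also called SnoN (chromosome 3, 31095058 to 31122577, plus strand), was at 15.6, 18.2 and 20.2 TPM and 8.84, 9.28 and 8.13 TPM. Neither gene had overlapping populations. The log2 fold changes were 0.95 for Ski (SE 0.17, limma adjusted p 0.00634) and 0.96 for Skil (SE 0.18, limma adjusted p 0.00853), just under the 2-fold limit. Quantile normalization lowered Skil to 0.60 (adjusted p 0.0603 by limma) and Ski to 0.65 (0.0108).

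The proportion of the corepressors overlapped between the populations. Ski stood at 2.02 to 3.12 times Skil in CD4SP and 2.44 to 2.77 times in CD8SP libraries, and the log2 ratio differed by -0.0072 (exact two-sided permutation p 0.9). In the same measure Smad7/Smad3 was 0.39 higher in CD4SP with overlapping ranges (exact two-sided permutation p 0.4), and it was 0.11 without CD4SP replicate 1 and 0.79 without CD4SP replicate 3.

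**Figure D3:**
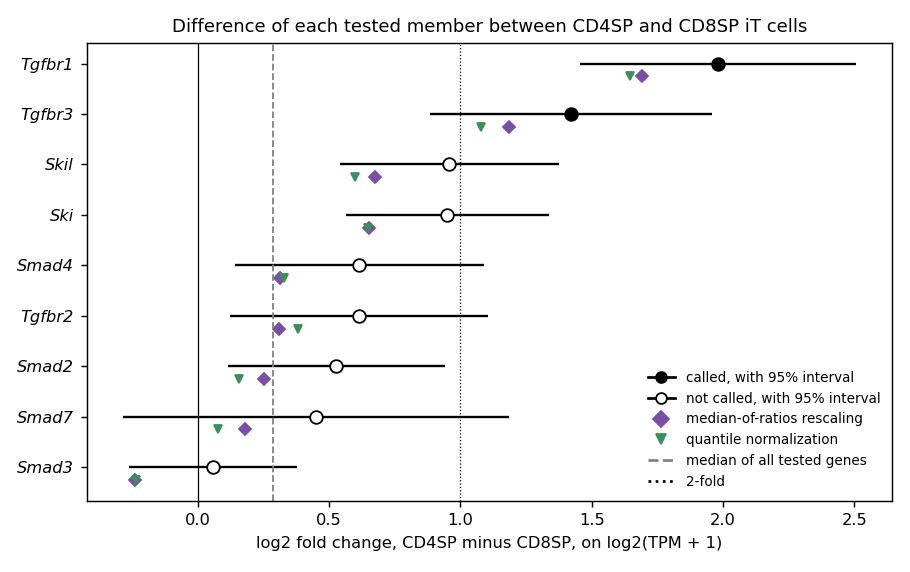
Log2 fold change of the 9 tested genes, CD4SP minus CD8SP on log2(TPM + 1), with 95% intervals from limma; filled circles were called, diamonds and triangles give the value under 2 other scalings, and lines mark 0, the median of all tested genes (0.28) and 2-fold. Only Tgfbr1 and Tgfbr3 are called, and Smad3 is the one gene that moves below 0 when the scaling changes.

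TPM is a level per length, so the members were also ordered by their mean TPM within each population. The order takes the TPM as listed, and low values such as those of Tgfb1 are uncertain as a measure of the transcript. In CD8SP iT cells the order was Tgfbr2 (66.5 ± 7.53 TPM, SD, n = 3), Smad4 (38.1 ± 2.37), Smad3 (32.2 ± 1.93), Ski (22.7 ± 1.75), Skil (8.75 ± 0.581), Tgfbr1 (8.48 ± 1.87), Smad2 (6.81 ± 0.161), Smad7 (6.58 ± 0.778) and Tgfbr3 (1.77 ± 0.402), with Tgfb1 at 0. The neighbours Skil and Tgfbr1, and Smad2 and Smad7, overlapped between libraries, and the other neighbours did not. In CD4SP iT cells Tgfbr2 (105 ± 29.0 TPM, SD, n = 3), Smad4 (60.3 ± 16.6), Ski (45.2 ± 7.31), Tgfbr1 (36.6 ± 8.94) and Smad3 (33.5 ± 2.14) formed a chain in which each neighbouring pair overlapped. Below them came Skil (18.0 ± 2.34), Smad2 (10.3 ± 0.130), Smad7 (9.98 ± 4.48), Tgfbr3 (6.39 ± 0.550) and Tgfb1. Among these, Smad2 and Smad7, and also Smad7 and Tgfbr3, overlapped between libraries. Tgfbr1 thus stood beside Smad3 and Ski in CD4SP iT cells and beside Skil in CD8SP iT cells.

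The genes whose levels ran most like Tgfbr1 over the 6 libraries, by Pearson r of log2(TPM + 1), were Rhot1 (r = 0.998), which encodes a GTPase of the mitochondrial outer membrane, Dapp1 (r = 0.998), which encodes a phosphoinositide-binding adaptor, and Cd69 (r = 0.997), which encodes an early activation antigen that retains T cells in tissues. Cd69 was at 228 to 270 TPM across CD4SP, against 151 to 172 TPM across CD8SP. The 6 points share a split into 2 populations, and 640 tested genes had an r above 0.95, so these 3 names describe only the top of a long list. No tested member had a negative log2 fold change, so no gene was matched in that direction.

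Other genes of the pathway were taken from 6 lists, and 49 of their 76 distinct genes were tested. The calls numbered 12 toward CD4SP and 2 toward CD8SP, against 7.92% and 1.8% of all tested genes, and the median log2 fold change was 0.68, against 0.28 for all tested genes. The lists were chosen with earlier results of these data known, so the counts here and below are description and not a test.

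Among 14 genes for other ligands, latency and activation, 6 were tested (median log2 fold change 1.07). Of these, 4 were called higher in CD4SP, against 7.92% of all tested genes. Lrrc32 encodes GARP, which holds latent TGF-beta on the surface of regulatory T cells. It was at 42.6, 62.5 and 56.0 TPM across CD4SP, against 0.912, 1.16 and 0.983 TPM across CD8SP, which is 4.75 in log2 fold change (limma adjusted p 6.38e-06). Tgfb3, a second ligand, was at 3.14, 3.28 and 3.12 TPM across CD4SP, against 0.620, 0.626 and 0 TPM across CD8SP. These levels are low, and Tgfb3 reached the filter through its CD4SP libraries alone. Its call (adjusted p 0.00763 by limma) therefore gives no support of its own. Furin, the protease that cleaves the TGF-beta precursor, was called at a log2 fold change of 1.05, and Itgav, the alpha chain of the integrins that release the ligand, at 1.10. Relative to the median of all tested genes, Furin lay at 0.76 and Itgav at 0.81, under 2-fold. The other tested genes were Itgb1, the most abundant of this list at 211 to 297 TPM, and Nrros, which holds latent TGF-beta on myeloid cells and is named Lrrc33 in the table. Their log2 fold changes were -0.034 and -0.0038. Tgfb2, Ltbp1, Ltbp2, Ltbp3 and Itgb6 were listed at 0 in all 6 libraries.

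Receptors of the activin and BMP branches were low. Of 12 genes, Bmpr1a and the pseudoreceptor gene Bambi (log2 fold change 0.78) reached the filter, and neither was called. Bambi reached it through its CD4SP libraries alone. Bmpr1a, the more abundant of them, was at 1.29 to 4.23 TPM across CD4SP, against 0.795 to 1.64 TPM across CD8SP (0.94 in log2 fold change, adjusted p 0.114 by limma). Of 4 other SMAD genes, only Smad5, a SMAD of the BMP branch, was tested. It was at 14.95, 10.2 and 16.0 TPM across CD4SP, against 9.95, 9.76 and 6.89 TPM across CD8SP, which is 0.57 in log2 fold change and was not called (limma adjusted p 0.120). Smad6 and Smad9 were listed at 0 throughout.

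Regulators of the receptors and SMADs were measured more completely, with 21 of 24 genes tested. None was called by limma with the 2-fold limit, while 9 had an unadjusted p under 0.05 and 8 passed the adjusted p alone, all 8 with higher values in CD4SP, against 37.1% and 20.8% of all tested genes, and the median log2 fold change was 0.40. The most abundant was Fkbp1a, whose product FKBP12 keeps the type I receptor inactive. It was at 261, 313 and 300 TPM across CD4SP, against 149, 152 and 171 TPM across CD8SP (0.88 in log2 fold change, adjusted p 0.00201 by limma). The ubiquitin ligase genes Smurf2 and Rnf111, named after their values were seen, had log2 fold changes of 0.72 and 0.68 (limma adjusted p 0.0288 and 0.0162). Genes of this list that did not pass the adjusted p include Smurf1 (0.32), Trim33 (0.23), Wwp1 (0.029) and Nedd4l (-0.65). Smurf2 marks receptors bound by SMAD7 for degradation, and Rnf111 (Arkadia) marks SKI, SKIL and SMAD7.

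Genes that TGF-beta is known to induce were compared next, with 11 of 14 tested. Called higher in CD4SP were 5, against 7.92% of all tested genes, and by limma 0 were called higher in CD8SP, nor did any with an unadjusted p under 0.05 lie in that direction, against 5.69% of all tested genes (median log2 fold change 1.12). Itgae, which encodes the CD103 chain of an integrin that binds E-cadherin, was at 222, 178 and 176 TPM across CD4SP, against 79.9, 82.2 and 66.4 TPM across CD8SP (1.32 in log2 fold change, adjusted p 6.96e-04 by limma). Also called were Cdkn1a, the cell cycle inhibitor p21 (1.67), Nt5e, the ectoenzyme CD73 (1.19), and Junb, an AP-1 factor and the most abundant of this list (1.12). Relative to the median of all tested genes, Nt5e lay at 0.91 and Junb at 0.83, under 2-fold. Foxp3 had a log2 fold change of 2.61 but was not called, with a limma adjusted p of 0.1005. The classical fibroblast target Ctgf was listed at 0 in all libraries. Pmepa1 and Ldlrad4 stand in this list and among the regulators, and Foxp3 is also a regulatory T cell marker.

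Genes that TGF-beta is known to repress in T cells were all tested, and they went both ways, with a median log2 fold change of -0.099. Of these 10 genes, 3 were called toward CD4SP and 2 toward CD8SP, against 7.92% and 1.8% of all tested genes. Called lower in CD4SP were Prf1, which encodes perforin, at 2.28 to 9.20 TPM against 51.7 to 62.3 TPM in CD8SP libraries (log2 fold change -3.16), and Eomes, a factor of the cytotoxic programme (-2.37, limma adjusted p 5.52e-05). Called higher in CD4SP were the cytokine gene Il2 (2.03), the helper lineage factor Gata3 (1.86) and Klrg1, an inhibitory receptor (1.80). Gzmb, the most abundant of the list at 306 to 520 TPM in all libraries, differed by -0.38 on the log2 scale and was not called (limma adjusted p 0.107). Perforin and Eomes belong to the CD8 lineage and Gata3 to the CD4 lineage in ordinary T cells, so lineage and the pathway cannot be told apart in these lists.

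**Figure D4:**
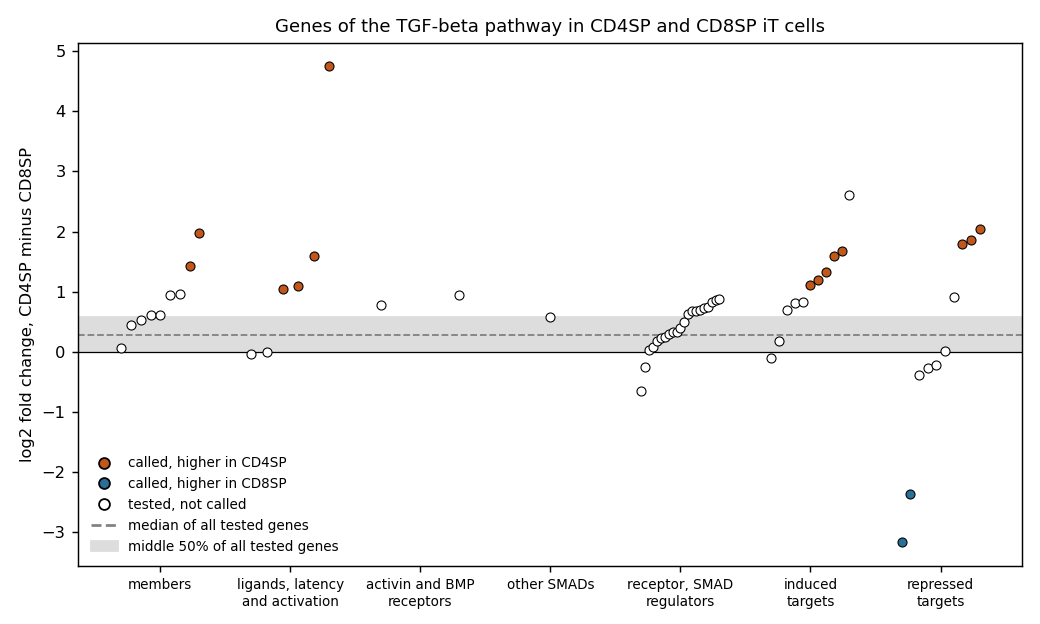
Log2 fold change, CD4SP minus CD8SP, of every tested gene in the member set and the 6 lists, with orange for genes called higher in CD4SP and blue for genes called higher in CD8SP. The grey band is the interquartile range of all tested genes around their median of 0.28, Lrrc32 is the highest point at 4.75, and Prf1 and Eomes are the lowest.

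Markers of other cells were set beside these results. The regulatory T cell list moved with the populations, with 8 of its 9 tested genes called higher in CD4SP, against 7.92% of all tested genes. Its summed level was 3835 to 4179 TPM across CD4SP, against 582 to 676 TPM across CD8SP. The part of this list in the differences of Tgfbr1 and Tgfbr3 was not tested. Lrrc32 belongs to this list too. The sum of the list was 3835 TPM in CD4SP replicate 2, where Foxp3 alone of the tested markers was at the CD8SP level, so leaving out that library does not vary the list as a whole. The NK cell list moved the other way, at 13.7 to 21.3 TPM across CD4SP, against 96.1 to 108 TPM across CD8SP, with Ncr1 at 0 in all libraries and Eomes and Klre1 making up most of the sum. The 5 platelet markers summed to 0.186 to 1.70 TPM across CD4SP, against 0.351 to 0.489 TPM across CD8SP, from Gp1bb and Itga2b, with Pf4, Ppbp and Gp9 at 0 in all 6 libraries. Summed markers of endothelial cells were at 2.59 to 6.68 TPM across CD4SP, against 1.45 to 3.21 TPM across CD8SP, with Kdr and Tek at 0 throughout. Stromal markers reached at most 0.409 TPM and erythroid markers at most 1.11 TPM. The B cell list summed to 15.9 to 24.5 TPM, mostly Cd79b, with Ms4a1 and Pax5 at 0, and the myeloid list to 25.2 to 44.8 TPM across CD4SP, against 27.7 to 37.6 TPM across CD8SP, with S100a8 and S100a9 at 0. Of its 4 tested genes, Lyz2 was called higher in CD4SP (1.68 in log2 fold change, adjusted p 0.00872 by limma) and Cd68 higher in CD8SP (-2.41, adjusted p 0.0127 by limma), and their part in the differences of the members was not tested. T cell genes summed to 4960 to 5226 TPM across CD4SP, against 4098 to 4593 TPM across CD8SP.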

How the data were processed

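Polyadenylated RNA of 6 libraries was measured, and groups and replicate numbers came from the sample titles. From amplified cDNA of sorted cells, the authors aligned reads to mm10 with HISAT2 and deposited StringTie expression as TPM. The annotation, the use of strand and the treatment of duplicate and shared reads are not given in the sources used here. TPM keep no depth, so no counting interval could be made and a 0 may be a failed estimate. From the deposited TPM, log2(TPM + 1) went into limma 3.58.1 under R 4.3.3 (population as the only term, mean-variance trend, Benjamini-Hochberg over 10476 genes), a procedure tested on simulated data. Same-numbered libraries were not paired, since their deviations correlated by only -0.0168 to 0.0887. Ratios were tested by exact permutation. Copies of member transcripts were sought by blastn 2.17.0 (at least 95% identity over 200 nt). Promoters came from a table of RefSeq promoters, and those of 5 of the 10 members were examined. Promoters of the members on chromosome 18 were left out and are not reported here. Named were all members, every called gene of a list, its most abundant tested gene, and 3 genes most like the top member; some named by this rule are not reported here. Of the marker lists (T, CD4, CD8, regulatory T, B, myeloid, NK, platelet, erythroid, endothelial and stromal cells), CD4 and CD8 markers serve as the label check. The members and lists were chosen with earlier results of these data known. Alternatives were another pseudocount, other filters, 3 other scalings, no trend, a replicate block, no fold limit and leaving out each library.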

Additional observations from a re-analysis of the deposited data

How the results depend on the processing

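Tgfbr1 and Tgfbr3 were called under each of the 15 alternatives that gave them a value of their own, and the number of members called was 2 or 3 except with the adjusted p alone, which gave 4. Leaving out 1 library each gave 2 to 3 members, 752 to 1042 genes in all and 10 to 15 of the other pathway genes. On the adjusted p alone 2183 genes passed in place of 1019, and 23 of the other pathway genes in place of 14, which quantile normalization lowered to 9. Skil was called with a pseudocount of 0.1 (1.03) and without CD4SP replicate 1 (1.05), and Ski without CD4SP replicate 2 (1.09) and without CD8SP replicate 1 (1.004). Smad3 changed sign, to -0.24 under median-of-ratios rescaling, -0.24 under quantile normalization and -0.098 with ribosomal protein genes removed, settings under which the median of all genes fell from 0.28 to about 0, to -0.015 and to 0.14. The Ski/Skil log2 ratio changed sign in fits that each left out 1 library, ranging from -0.16 to 0.14 around -0.0072; the cause was not tested.

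A fit blocked on the replicate number called 997 genes, 2 members (limma adjusted p 9.37e-04 for Tgfbr1 and 0.0147 for Tgfbr3) and 13 other pathway genes, and the ratios kept their values, so the block changed no call among the members. Averaging CD8SP replicates 1 and 2, chosen after seeing the data, gave 809 genes and the same 2 members. Of the calls, 81.5% were toward CD4SP, which became 61.4% with median-of-ratios factors and 57.1% with quantiles. TPM keep no depth, so counting error behind low values such as those of Tgfb1 is unknown.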
